A study of Mus musculus with 18 samples.

Results

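The comparison asks what D18, which the sources describe by no more than this code, added to PD-1 blockade in the CD4+ T helper cell sort of mouse tumours. Its members are 6 of the 18 libraries of the series, chosen by their labels alone: 3 from the anti-PD-1 group and 3 from the group given anti-PD-1 plus D18 (hereafter D18). The tumours grew from MC38, a mouse colon carcinoma line, under the skin of C57BL/6 females that were 6 weeks old when injected, and treatment began 7 to 10 days later at a mean tumour volume of 100 mm3. Both groups received 200 µg of anti-PD-1 antibody per mouse 2 times per week for 2 weeks. The D18 group also received 25 µg of D18 per mouse 1 time per week. Every mouse thus had PD-1 blockade, and an untreated tumour is not analysed here. The mice came from 1 pool, and the labels do not say that replicates are separate mice, so the spread behind each p-value is that of these samples and may be technical.

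Helper T cells read antigen through a receptor made of variable alpha and beta chains and the invariant CD3 chains, with CD4 as the coreceptor that binds MHC class II. Macrophages, dendritic cells and B cells carry class II. PD-1 is an inhibitory receptor of activated T cells, and antibodies that block it release part of that brake. In tumours the CD4 compartment holds both conventional helper cells and Foxp3-expressing regulatory T cells, which restrain other T cells.

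The labelled cell type was only partly borne out by its defining markers. Cd3e, an invariant chain of the receptor complex, gave 0, 1 and 45 reads in anti-PD-1 replicates 1, 2 and 3 and 23, 10 and 41 reads in D18 replicates 1, 2 and 3. Cd4 gave 7, 1 and 20 reads against 16, 10 and 2. H2-Aa, the class II alpha chain gene, gave 304, 677 and 160 against 10, 16 and 241. Anti-PD-1 replicates 1 and 2 were therefore nearly without T cell reads and rich in class II reads, and Cd3d and Trbc2 had 0 reads in both. D18 replicate 3 was T cell-bearing but held 83 reads of Cd8a and 90 of Cd8b1 beside its 2 of Cd4, while D18 replicates 1 and 2 held 0 of both Cd8 genes. Anti-PD-1 replicate 3 held 20 reads of Cd4, 15 of Cd8a and 23 of Cd8b1. Only anti-PD-1 replicate 3 and D18 replicates 1 and 2 thus had at least 10 reads each of Cd3e and Cd4.

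**Figure D1:**
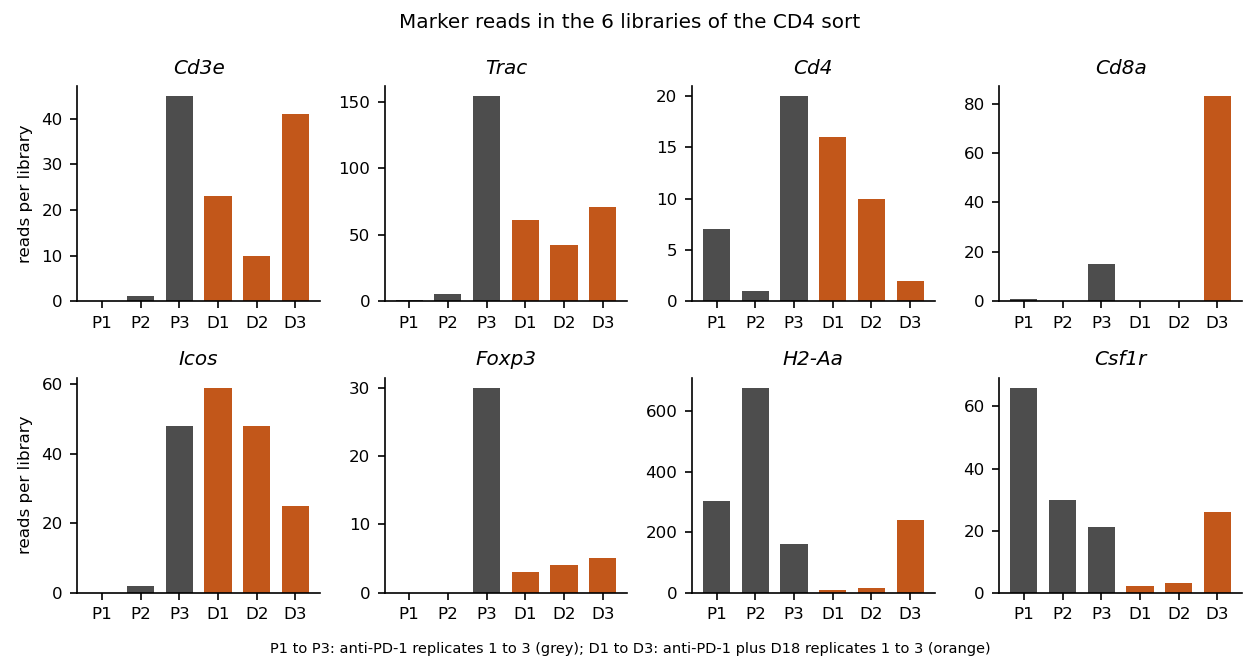
Reads per library (vertical axis, each panel from 0) of 8 marker genes in the 6 libraries of the CD4 sort. Anti-PD-1 replicates 1 and 2 have 0 and 1 reads of Cd3e, D18 replicates 1 and 2 have the lowest H2-Aa, and D18 replicate 3 has 83 reads of Cd8a.

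The libraries held 31156 to 151689 reads assigned to genes, from 4292 to 10675 genes each. Where a library shows 0 reads, up to 3 remain possible, which is 19.8 to 96.3 CPM (reads scaled by the library total) and covers counting error only because Smart-Seq2 reads carry no molecular identifiers. Mitochondrial transcripts took 2.85% to 67.7% of the reads. In anti-PD-1 replicates 1 and 2, 0 reads fell on mt-Co2, mt-Co3 or mt-Atp6, transcripts that the other 4 libraries all held. The anti-PD-1 libraries numbered 1 and 2 of the CD8 and dendritic cell sorts lacked these transcripts as well. All other libraries of the series held each of them, D18 replicate 2 of the CD4 sort with only 1, 2 and 2 reads. In every sort the lack, as 0 reads, thus fell only on anti-PD-1 libraries. Its cause was not tested. Across 3273 genes, D18 replicate 3 resembled replicate 3 of the D18 dendritic cell sort (Spearman correlation 0.84) and of the D18 CD8 sort (0.79) more than any library of its own sort. Anti-PD-1 replicate 3 was likewise closest to the anti-PD-1 replicates 3 of the dendritic cell (0.73) and CD8 (0.71) sorts. These correlations are descriptions across genes within single libraries. No pair of libraries held identical reads. Libraries are called by their labels throughout, although several go against them, and whether samples were exchanged or mixed was not tested. Whether these cell contents, the RNA or the treatment set a given difference below was not tested either. In bulk RNA, fewer cells of a type and less RNA per cell cannot be told apart.

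Of 966 genes with a mean of at least 10 normalised reads, limma called 0 at an adjusted p under 0.05 (percent called 0), and the smallest adjusted p was 0.453. The count was 19 without anti-PD-1 replicate 3 and 34 without both libraries numbered 3. At an unadjusted p under 0.05 there were 36 genes higher with D18 (3.73% of those tested) and 64 lower (6.63%). In 51 genes (5.28%) all D18 libraries lay above all anti-PD-1 libraries, and in 89 (9.21%) all lay below. The median change over all genes tested was 0.03 on the log2 scale, the scale of every change given here, each a difference of group means of log2(normalised reads + 1). The genes named below as higher or lower therefore describe these libraries. None of them passed the test with all 6 libraries.

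Among the 10 genes with the smallest unadjusted p that were higher with D18, some are typical of lymphocytes and others broadly expressed. Ms4a4b encodes a membrane protein of T cells that modulates their activation (ENSMUSG00000056290.15, mm10 chromosome 19, 11443553 to 11467055). It had 1, 1 and 54 reads under anti-PD-1 alone against 52, 48 and 164 with D18, and its groups did not overlap. The difference was 4.09 ± 1.08 (SE, n = 3 per group, limma adjusted p = 0.453), and 1.26 when anti-PD-1 replicate 3 alone stood for its group. Id2, a regulator of transcription that sustains effector lymphocytes, had 14, 19 and 77 reads against 78, 37 and 179. After division by size factors these were 27.3 ± 20.6 against 94.3 ± 21.8 normalised reads (SD, n = 3 per group), again without overlap. Icos encodes a receptor that costimulates helper cells once activated (chromosome 1, 60977927 to 61000320). It had 0, 2 and 48 reads against 59, 48 and 25 (3.37 ± 1.25). D18 replicate 3 lay below anti-PD-1 replicate 3 after normalisation, so the Icos groups overlapped. The change was 0.61 against anti-PD-1 replicate 3 alone and 5.59 without both libraries numbered 3.

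Gzmb, a granzyme of cytotoxic and regulatory T cells, had 0, 11 and 81 reads against 52, 31 and 157 (3.03 ± 1.26, no overlap). Gimap4, a GTPase of lymphocytes, had 1, 1 and 83 against 41, 39 and 43 (3.04 ± 1.24). Its order depended on the anti-PD-1 libraries kept, since the change against anti-PD-1 replicate 3 alone was −0.18. The other 5 had smaller differences. Cytoskeletal Actg1 differed by 1.41 ± 0.56 and Vim by 1.57 ± 0.65. The elongation factor gene Eef2 differed by 1.39 ± 0.56, the long noncoding RNA AW112010 by 1.20 ± 0.51 and the chaperone gene Hsp90aa1 by 1.15 ± 0.53. Beside all 10 stood Cd3e reads of 0, 1 and 45 against 23, 10 and 41, Cd4 reads of 7, 1 and 20 against 16, 10 and 2, and H2-Aa reads of 304, 677 and 160 against 10, 16 and 241.

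The 10 genes with the smallest unadjusted p that were lower with D18 include lysosomal and myeloid genes beside broadly expressed ones. Lgmn, which encodes the lysosomal protease legumain (ENSMUSG00000021190.14, chromosome 12, 102394084 to 102439813), had 433, 257 and 168 reads under anti-PD-1 alone against 16, 24 and 76 with D18. Mean normalised reads were 236 ± 110 against 37.2 ± 12.6 (SD, n = 3 per group), a difference of −2.56 ± 0.57 (SE, limma adjusted p = 0.453). Unlike Icos, Lgmn was lower in all 3 D18 libraries than in anti-PD-1 replicate 3, and the change against that library alone was −1.59. Tgfbi, a secreted matrix protein abundant in tumour macrophages (chromosome 13, 56609523 to 56639562), had 290, 100 and 83 reads against 7, 0 and 53 (−3.96 ± 1.18). Sat1, the enzyme that acetylates polyamines for export, had 236, 121 and 99 against 5, 14 and 46 (−2.66 ± 0.65).

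Gpx1, a glutathione peroxidase, had 156, 155 and 96 reads against 7, 6 and 78 (−2.56 ± 0.68). Fcgr2b, the inhibitory Fc gamma receptor of B cells and myeloid cells, had 116, 96 and 54 against 5, 3 and 50 (−2.57 ± 0.71). Among the remaining 5, the membrane protein gene Ms4a6d differed by −2.24 ± 0.74 and the sorting nexin gene Snx5 by −2.13 ± 0.62. The ganglioside activator gene Gm2a differed by −1.88 ± 0.53, the syntenin gene Sdcbp by −1.79 ± 0.58 and the phosphatase gene Dusp1 by −1.77 ± 0.50. All 10 had groups that did not overlap. Their changes against anti-PD-1 replicate 3 alone must then lie below 0, so that sign is no further check. These changes ran from −0.91 for Sdcbp to −2.97 for Tgfbi. In that fit 570 of all 966 genes were lower, with a median of −0.19. The marker reads beside them were again Cd3e 0, 1 and 45 against 23, 10 and 41, Cd4 7, 1 and 20 against 16, 10 and 2, and H2-Aa 304, 677 and 160 against 10, 16 and 241.

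**Figure D2:**
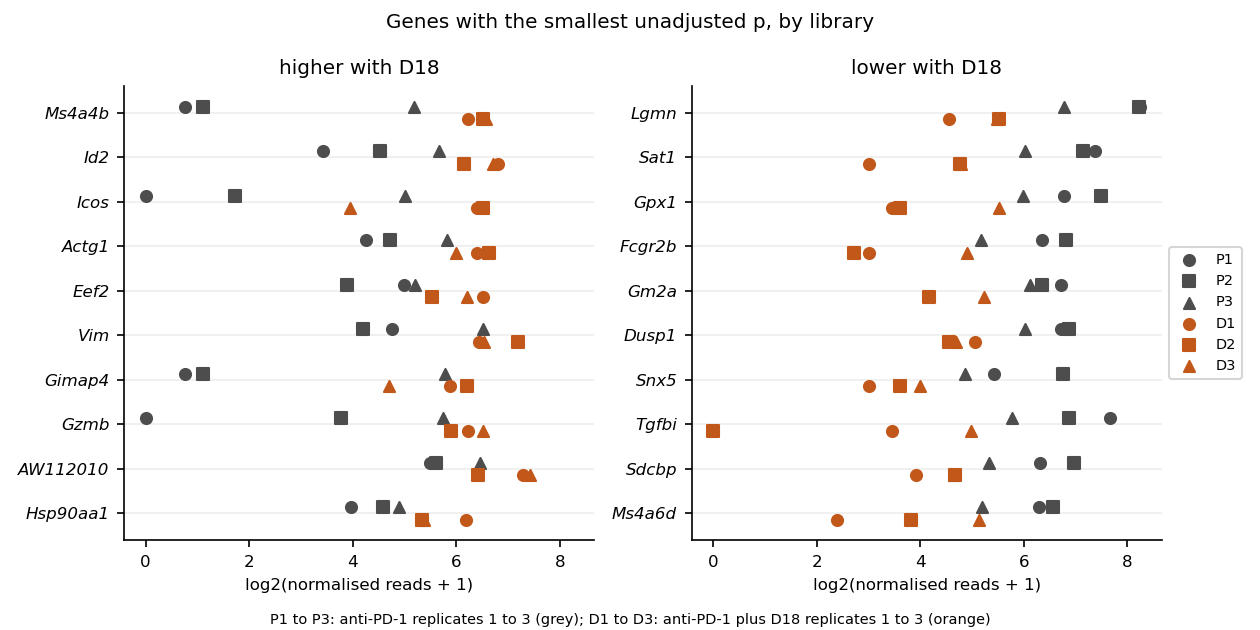
Each point is a library, at log2(normalised reads + 1) on the horizontal axis, for the 10 genes higher (left) and the 10 lower (right) with D18 that have the smallest unadjusted p. For Ms4a4b and Icos the grey triangle, anti-PD-1 replicate 3, lies far to the right of the other grey points, and for Lgmn all orange points lie to the left of all grey ones.

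The T cell receptor list covered the receptor chains and the proteins that carry its signal. Of its 18 members 14 passed the filter, 13 of them higher and 1 lower with D18, against 498 of 966 genes higher overall. 6 had an unadjusted p under 0.05, all higher, beside 3.73% of all genes tested in that direction. The list median was 2.68 beside 0.03 for all genes. The change of Cd3e itself was 2.66 ± 1.19 (SE, n = 3 per group), from 10.1 ± 16.6 to 25.0 ± 6.95 normalised reads (SD), and that of Cd4 was 0.83 ± 1.39. Trac, the constant region of the receptor alpha chain, had 1, 5 and 154 reads under anti-PD-1 alone against 61, 42 and 71 with D18. Cd3d had 0, 0 and 55 against 22, 14 and 70. Lck, the kinase bound to CD4 and CD8, had 0, 1 and 53 against 34, 24 and 43.

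After normalisation anti-PD-1 replicate 3 lay within the D18 range for Cd3e, Cd3d and Lck and above it for Trac, and replicates 1 and 2 of its group lay below it in all 4 genes. For Cd4 those replicates lay within the D18 range, whose low end is D18 replicate 3. Zap70, the kinase recruited to the CD3 chains, stayed under the filter with 0, 0 and 37 reads against 11, 6 and 11. The member that was lower, Fyb, is an adaptor also present in myeloid cells, and had 52, 33 and 46 reads against 15, 22 and 40. Against anti-PD-1 replicate 3 alone the list median was −0.05, with 7 members higher and 7 lower. Without both libraries numbered 3 it was 4.25. With the list the H2-Aa reads ran from 304, 677 and 160 to 10, 16 and 241, and those of Cd3e and Cd4 were as given at its members and above (Cd4 7, 1 and 20 against 16, 10 and 2).

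Costimulatory receptors were higher in 8 of 8 tested members of 12 (median 2.09), 2 of them with an unadjusted p under 0.05. Among all genes tested 3.73% were higher at that threshold and 5.28% were higher without overlap. Tnfrsf9, which encodes the activation-induced receptor 4-1BB, had 1, 1 and 135 reads under anti-PD-1 alone against 36, 69 and 30 with D18. Tnfrsf4, which encodes OX40, had 1, 2 and 119 against 30, 51 and 19. Cd69, an early activation marker that holds T cells in tissue, had 7, 1 and 9 against 23, 9 and 23, and was the member whose groups did not overlap. After normalisation D18 replicate 2 was the highest library for Tnfrsf9 and Tnfrsf4, followed by anti-PD-1 replicate 3. Against that library alone the list median was −0.58, and 2 of 8 members were higher. The marker reads for this list were Cd3e 0, 1 and 45 against 23, 10 and 41, Cd4 7, 1 and 20 against 16, 10 and 2, and H2-Aa 304, 677 and 160 against 10, 16 and 241.

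Regulatory T cell genes came to the test in 4 of 16 members, all 4 higher (median 2.12), of which Tnfrsf4 and Tnfrsf18 also belong to the costimulatory list. The 12 members under the filter include the lineage factor Foxp3, with 0, 0 and 30 reads against 3, 4 and 5. Il2ra, the high-affinity chain of the interleukin-2 receptor, had 0, 0 and 34 against 6, 7 and 10. Ctla4, an inhibitory receptor gene that passed the filter, had 0, 4 and 47 against 5, 10 and 6. Il10, a suppressive cytokine, had reads only in anti-PD-1 replicate 3, with 11, so the limit in each D18 library is 3 reads. For Foxp3, Il2ra and Ctla4 the highest library was anti-PD-1 replicate 3, also after normalisation. Without anti-PD-1 replicates 1 and 2 the list median turned to −1.45, and with 1 library in that group the fit called 0 genes. Marker reads were 0, 1 and 45 against 23, 10 and 41 (Cd3e), 7, 1 and 20 against 16, 10 and 2 (Cd4) and 304, 677 and 160 against 10, 16 and 241 (H2-Aa).

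Because these libraries differ in T cell content, the regulatory genes were also set against the summed reads of the T cell receptor list, in the 4 libraries with at least 10 reads of Cd3e, a choice made after the reads were seen. The regulatory list gave 691 reads per 1000 receptor-list reads in anti-PD-1 replicate 3 (95% interval 619 to 770, exact binomial, counting error only). It gave 312 (257 to 378), 581 (472 to 712) and 212 (176 to 254) in D18 replicates 1, 2 and 3. Foxp3 alone gave 36.8 (24.7 to 53.0) against 6.55 (1.35 to 19.3), 15.4 (4.16 to 39.9) and 7.42 (2.4 to 17.4). The interval of D18 replicate 2 overlapped that of the anti-PD-1 library in both measures, and those of D18 replicates 1 and 3 lay below it. Icos ran otherwise, at 58.9 (43.1 to 78.8) against 129 (96.5 to 169), 185 (133 to 252) and 37.1 (23.8 to 55.2). Within the regulatory list, too, not every member followed Foxp3. Nrp1 gave 8.59 against 32.8, 11.5 and 20.8, Il2rb 68.7 against 78.6, 80.8 and 72.7, and Ikzf2 19.6 against 19.7, 46.2 and 5.93. The receptor-list reads of D18 replicate 3 come from a library with 83 reads of Cd8a and 90 of Cd8b1. With 1 anti-PD-1 library the comparison sets 4 libraries side by side and has no replicate check. Beside it, Cd3e had 45 reads against 23, 10 and 41, Cd4 had 20 against 16, 10 and 2, and H2-Aa had 160 against 10, 16 and 241.

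Cytotoxic genes were higher in 5 of 5 tested members of 17 (median 2.94). After normalisation Nkg7, Gzmb and Ccl5 were highest in the Cd8a-rich D18 replicate 3, and Ctsw and Klrd1 in D18 replicate 1. Nkg7, a granule protein of killer lymphocytes, had 1, 1 and 150 reads against 37, 12 and 225. Ccl5, a chemokine of memory T cells, had 9, 0 and 35 against 4, 3 and 170. Gzma had 38 reads in D18 replicate 3 and 0 in the other 5 libraries. Prf1, which encodes perforin, had 0, 0 and 37 reads against 0, 0 and 10. Per 1000 receptor-list reads the whole list gave 482 in anti-PD-1 replicate 3 and 391, 254 and 1224 with D18. The library at 1224 is the one with 83 reads of Cd8a, and its part in the list's level was not tested. Cd3e stood at 0, 1 and 45 reads against 23, 10 and 41, Cd4 at 7, 1 and 20 against 16, 10 and 2, and H2-Aa at 304, 677 and 160 against 10, 16 and 241.

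Inhibitory receptors and exhaustion genes were higher in 5 of 5 tested members of 14 (median 1.14, and −1.35 against anti-PD-1 replicate 3 alone). Pdcd1, which encodes the target of the antibody given to both groups, had 2, 1 and 45 reads under anti-PD-1 alone against 20, 2 and 19 with D18. Tigit had 1, 0 and 64 against 13, 8 and 10. Of 25 genes of naive and memory cells and of homing, 15 were tested, 13 higher and 2 lower (median 0.99, and −0.48 against anti-PD-1 replicate 3 alone). In this list Cxcr6, which encodes a chemokine receptor of tissue-resident T cells, gave 0, 0 and 24 reads against 35, 17 and 47, and the LFA-1 integrin gene Itgal had 2, 0 and 22 against 31, 10 and 46. The groups of both did not overlap, beside 5.28% of all genes tested that were higher without overlap. The markers beside these lists ran from 0, 1 and 45 to 23, 10 and 41 reads (Cd3e), from 7, 1 and 20 to 16, 10 and 2 (Cd4) and from 304, 677 and 160 to 10, 16 and 241 (H2-Aa).

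Helper lineage factors and cytokines lay almost wholly under the filter, with 1 of 20 members tested. Gata3, the factor of type 2 helper and regulatory cells, had 0, 1 and 24 reads against 2, 14 and 11. Tbx21, the factor of type 1 helper cells, had 0, 0 and 6 against 3, 0 and 5. Ifng, the effector cytokine of type 1 cells, had 0, 0 and 3 against 12, 2 and 40, highest in the Cd8a-rich library. The cytokine genes Il2, Il17a and Il21 had 0 reads in all 6 libraries, and a difference in them was not detectable at this depth. These libraries held Cd3e at 0, 1 and 45 against 23, 10 and 41 reads, Cd4 at 7, 1 and 20 against 16, 10 and 2 and H2-Aa at 304, 677 and 160 against 10, 16 and 241.

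MHC class II presentation was among the lists with the lowest medians. Of 10 members 6 were tested, 1 higher and 5 lower, 3 with an unadjusted p under 0.05, and the median was −2.25. All 3 were lower, beside 6.63% of all genes tested at that threshold. H2-Aa had 366 ± 365 normalised reads under anti-PD-1 alone against 61.1 ± 68.0 with D18 (SD, n = 3 per group), a difference of −2.69 ± 0.97 (SE, limma adjusted p = 0.453), from raw reads of 304, 677 and 160 against 10, 16 and 241. H2-Ab1, its beta chain partner, had 195, 451 and 194 against 11, 21 and 234. H2-Eb1, a second beta chain, had 254, 435 and 130 against 7, 20 and 277. Cd74, the invariant chain that escorts class II to endosomes, had 451, 595 and 207 against 11, 32 and 294. In all 4 genes D18 replicates 1 and 2 were lowest and D18 replicate 3 overlapped the anti-PD-1 libraries. H2-DMa, a peptide-loading chaperone, was the member that was higher, with 29, 34 and 15 reads against 9, 16 and 58. Ciita, the master activator of these genes, had 0, 0 and 2 against 0, 0 and 4. Cd3e reads beside the class II genes were 0, 1 and 45 against 23, 10 and 41, and Cd4 reads were 7, 1 and 20 against 16, 10 and 2.

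Class II genes carry a known paired promoter element, the X box and, downstream of it, the Y box, whose core is an inverted CCAAT. In these libraries the reads of H2-Aa and H2-Eb1 ran side by side, while those of H2-DMa did not run with them. The promoters of H2-Aa and H2-Eb1 from the RefSeq table are shown, 5′ to 3′ on the coding strand of GRCm38.p6, with GCAAC, a part of the X box, and CTGATTGG, which holds the Y box core, in capitals. H2-Aa lies on the minus strand at chr17:34287842-34287929 and H2-Eb1 on the plus strand at chr17:34305751-34305837.
H2-Aa: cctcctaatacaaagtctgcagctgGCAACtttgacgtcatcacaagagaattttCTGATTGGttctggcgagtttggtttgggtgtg
H2-Eb1: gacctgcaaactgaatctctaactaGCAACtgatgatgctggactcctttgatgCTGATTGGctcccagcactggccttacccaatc
CTGATTGG begins 51 bases before the start of H2-Aa and 62 before that of H2-Eb1, and 25 and 24 bases separate the paired motifs. Searched on both strands, CCAAT is in 37.4% of the 32851 promoter windows of that table (250 bases before to 50 after a start), CTGATTGG in 4.10% and GCAAC in 35.2%. GCAAC followed 15 to 30 bases on by CTGATTGG is in 24 windows (0.0731%), and H2-Aa, H2-Eb1, H2-Eb2 and H2-Oa are among them. Most of these windows belong to genes outside class II, such as Stard7, Elavl2 and Mark3. The promoter of H2-DMa is not shown, and whether the motifs bear on the reads was not tested. A match describes these letters only.

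Monocyte and macrophage markers were lower in 22 of 23 tested members of 27 and higher in 1, with a median of −1.35, and 8 had an unadjusted p under 0.05, all lower. At that threshold 6.63% of all genes tested were lower. Every one of the 27 had reads in at least 1 library. Lyz2, the lysozyme of myeloid cells, had 538, 511 and 286 reads under anti-PD-1 alone against 72, 117 and 1172 with D18. C1qa, a chain of complement C1q made by tissue macrophages, had 489, 503 and 199 against 27, 63 and 287. Csf1r, the receptor on which macrophages depend, had 66, 30 and 21 against 2, 3 and 26. Spp1, which encodes osteopontin, had 320, 0 and 349 against 1, 0 and 38. After normalisation D18 replicate 1 was the lowest library for the first 3 of these genes, and D18 replicate 3 lay above anti-PD-1 replicate 3 for each of them. Only Fcgr2b, Cybb and Cd14 had groups that did not overlap, beside 9.21% of all genes tested that were lower without overlap. The list summed to 86204, 85534 and 30801 CPM of nuclear reads under anti-PD-1 alone and to 10340, 27951 and 38790 with D18. Against anti-PD-1 replicate 3 alone the median was −0.50. The Cd3e reads ran 0, 1 and 45 against 23, 10 and 41, the Cd4 reads 7, 1 and 20 against 16, 10 and 2, and the H2-Aa reads 304, 677 and 160 against 10, 16 and 241, so the macrophage list was highest in the libraries with the fewest Cd3e reads.

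**Figure D3:**
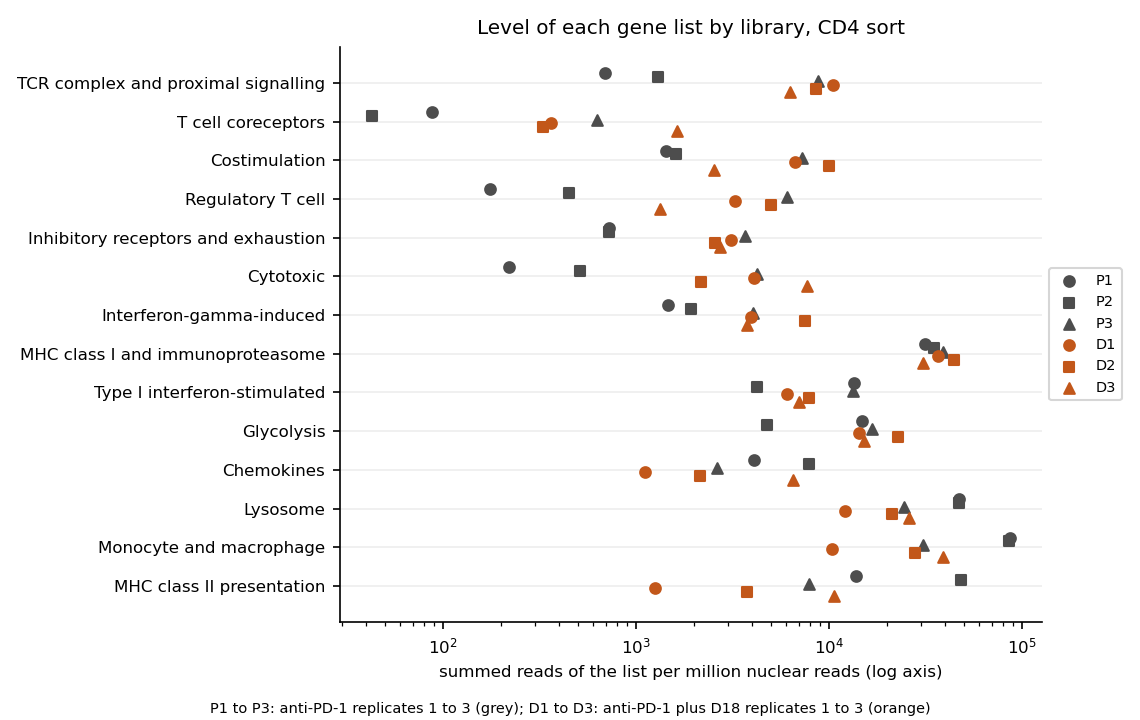
Summed reads of each of 14 gene lists as CPM of nuclear reads (log axis), with 1 point per library. Anti-PD-1 replicates 1 and 2 lie apart at the low end of the T cell lists and at 86204 and 85534 in the monocyte and macrophage list. In these lists anti-PD-1 replicate 3 lies among or near the D18 libraries, and is the highest library in the regulatory and inhibitory lists. In the type I interferon list it lies at 13240, against 6035 to 7896 with D18.

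Lysosomal genes were lower in 17 of 20 tested members of 21 (median −0.95, 6 with an unadjusted p under 0.05). The groups of 6 did not overlap, among them Ctsb and the already named Lgmn and Gm2a. Over all genes tested 6.63% were lower at that threshold and 9.21% were lower without overlap. Ctsb, a cysteine protease of most cells, had 320, 168 and 256 reads against 47, 64 and 239. Ctss, the protease that trims the class II invariant chain, had 1321, 801 and 512 against 87, 170 and 710. Ctsc, which activates granzymes in T cells, was among the 3 members that were higher, with 202, 78 and 91 against 70, 84 and 133. Against anti-PD-1 replicate 3 alone the median was −0.57, with 18 members lower. Chemokines were lower in 7 of 10 tested members of 18 (median −1.29) and 0 of them had an unadjusted p under 0.05. Cxcl2, which attracts neutrophils, had 132, 75 and 27 reads against 12, 2 and 57. Cxcl16, the ligand of Cxcr6, had 61, 103 and 18 against 4, 5 and 43. As shares of nuclear reads both lists were lowest in D18 replicate 1, the library with 10 reads of H2-Aa, 23 of Cd3e and 16 of Cd4, and the other 5 libraries held H2-Aa reads of 304, 677, 160, 16 and 241, Cd3e reads of 0, 1, 45, 10 and 41 and Cd4 reads of 7, 1, 20, 10 and 2.

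The Ms4a family of membrane proteins has members typical of lymphocytes and of macrophages. Of 8 members 6 were tested, 1 higher and 5 lower (median −1.25). Beside Ms4a4b, the higher member, Ms4a7, a macrophage member, had 56, 141 and 55 reads against 1, 4 and 86. Ms4a4c had 116, 69 and 60 against 13, 22 and 33, and Ms4a6b had 70, 118 and 87 against 45, 33 and 119. After normalisation the groups of Ms4a7, Ms4a4c and Ms4a6b overlapped, and only 1 of the lower members, the already named Ms4a6d, had groups that did not. Members of this family and of the MHC class I genes resemble each other in sequence, so their reads may have been lost or misassigned in counting. D18 replicate 3 held many reads of both Ms4a4b and Ms4a7. Beside the family stood Cd3e reads of 0, 1 and 45 against 23, 10 and 41 and H2-Aa reads of 304, 677 and 160 against 10, 16 and 241, with Cd4 at 7, 1 and 20 against 16, 10 and 2.

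Markers of other cell types differed in how many reads they had. Neutrophil genes summed to 1 to 8 reads per library, and Ly6g, Cxcr2, Retnlg, Camp and Ngp had 0 in all 6. Tumour epithelial genes summed to 0 to 7 reads, and the keratin genes Krt8, Krt18 and Krt19 had 0 throughout. B cell genes summed to 41, 6 and 42 reads under anti-PD-1 alone and to 10, 4 and 97 with D18, and Cd79a, a B cell receptor signalling chain gene, had 11 of the 97. Natural killer cell genes summed to 0 to 19 reads, with Ncr1 at 0. Dendritic cell genes summed to 256, 43 and 139 reads against 45, 29 and 226. Of the 17, 3 were tested, 2 higher and 1 lower (median 0.34). Siglech, a plasmacytoid dendritic cell receptor gene under the filter, had 41, 7 and 3 reads against 0 in each D18 library, while Irf8, a factor of dendritic cell development, had 68, 5 and 40 against 18, 9 and 86. Next to these sums, Cd3e gave 0, 1 and 45 against 23, 10 and 41, Cd4 gave 7, 1 and 20 against 16, 10 and 2, and H2-Aa gave 304, 677 and 160 against 10, 16 and 241.

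Genes induced by interferon-gamma were higher in 7 of 8 tested members of 22 (median 1.45), 3 of them with an unadjusted p under 0.05. Gbp2, a guanylate-binding protein of cell-autonomous defence, had 10, 0 and 18 reads against 13, 22 and 44, and Irgm1, an immunity-related GTPase, had 18, 6 and 18 against 15, 17 and 36. Neither gene's groups overlapped after normalisation. Over all genes tested 5.28% were higher without overlap and 3.73% were higher at that unadjusted threshold. Gbp7 had 0, 0 and 25 against 15, 20 and 24. This list kept a positive median against anti-PD-1 replicate 3 alone (0.31, 6 of 8 members higher), where the receptor, costimulatory and regulatory lists did not. It was not alone in this. The NF-kappaB and inflammatory list (0.49, 3 tested), the hypoxia list (0.21, 5 tested) and the glycolysis list (0.13) were among others that kept one. The median over all genes in that fit was −0.19. In the same libraries Cd3e had 0, 1 and 45 against 23, 10 and 41 reads, Cd4 had 7, 1 and 20 against 16, 10 and 2, and H2-Aa had 304, 677 and 160 against 10, 16 and 241.

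Type I interferon-stimulated genes divided evenly over all libraries, 10 higher and 9 lower of 19 tested (29 in the list, median 0.05), with 2 at an unadjusted p under 0.05, both lower. At that threshold 6.63% of all genes tested were lower. Ifi204, a DNA sensor of myeloid cells, had 42, 23 and 23 reads against 4, 2 and 15, and Zbp1, a sensor of unusual nucleic acids that starts cell death, had 25, 18 and 39 against 5, 4 and 20. Against anti-PD-1 replicate 3 alone 17 of 19 were lower and the median was −0.66. Ifi27l2a, the most abundant member, had 235, 7 and 410 reads against 63, 13 and 95. MHC class I and immunoproteasome genes were higher in 13 of 17 tested members of 21 (median 0.52, 0 with an unadjusted p under 0.05). H2-K1, a classical class I heavy chain, had 499, 223 and 747 reads against 402, 350 and 565. The markers beside the interferon and class I lists were Cd3e at 0, 1 and 45 against 23, 10 and 41, Cd4 at 7, 1 and 20 against 16, 10 and 2, and H2-Aa at 304, 677 and 160 against 10, 16 and 241.

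Glycolytic enzymes were higher in 12 of 12 tested members of 15, with a median of 0.84 and 1 unadjusted p under 0.05 (3.73% of all genes tested were higher at that threshold). That gene, Pgk1, which makes the first ATP of the pathway, had 19, 3 and 38 reads against 24, 26 and 46. Gapdh had 208, 67 and 286 against 126, 125 and 423. Anti-PD-1 replicate 2, the library with 67.7% mitochondrial reads, was the lowest of the 6 for the summed list, at 4801 CPM of nuclear reads against 14302 to 22665 in the other 5. Without anti-PD-1 replicates 1 and 2 the median was 0.13, with 8 members higher. Nuclear-encoded respiratory chain genes were evenly divided, 11 higher and 10 lower of 21 tested (median 0.18). Mitochondrially encoded transcripts were lower in 7 of 10 tested members (median −2.44, 4 with an unadjusted p under 0.05, where 6.63% of all genes tested were lower). Of these protein-coding transcripts mt-Cytb, a subunit of complex III, had 14800, 36776 and 6860 reads against 1506, 61 and 3260. The 3 that were higher, mt-Co2, mt-Co3 and mt-Atp6, are those at 0 in anti-PD-1 replicates 1 and 2. In that pair of libraries Cd3e had 0 and 1 reads, Cd4 7 and 1 and H2-Aa 304 and 677, against 45, 20 and 160 in replicate 3 of that group and, with D18, 23, 10 and 41 of Cd3e, 16, 10 and 2 of Cd4 and 10, 16 and 241 of H2-Aa.

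Of 25 tested actin cytoskeleton genes 11 were higher and 14 lower (median −0.03). Iron, antioxidant and polyamine genes were lower in 9 of 14 (median −0.76). Fth1, the ferritin heavy chain, had 2630, 1426 and 879 reads under anti-PD-1 alone against 198, 130 and 1838 with D18, and as for H2-Aa the lowest libraries were D18 replicates 1 and 2. H2-Aa had 304, 677 and 160 against 10, 16 and 241, while Cd3e had 0, 1 and 45 against 23, 10 and 41 and Cd4 had 7, 1 and 20 against 16, 10 and 2. Endoplasmic reticulum folding genes were lower in 9 of 15 (median −0.29).

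**Figure D4:**
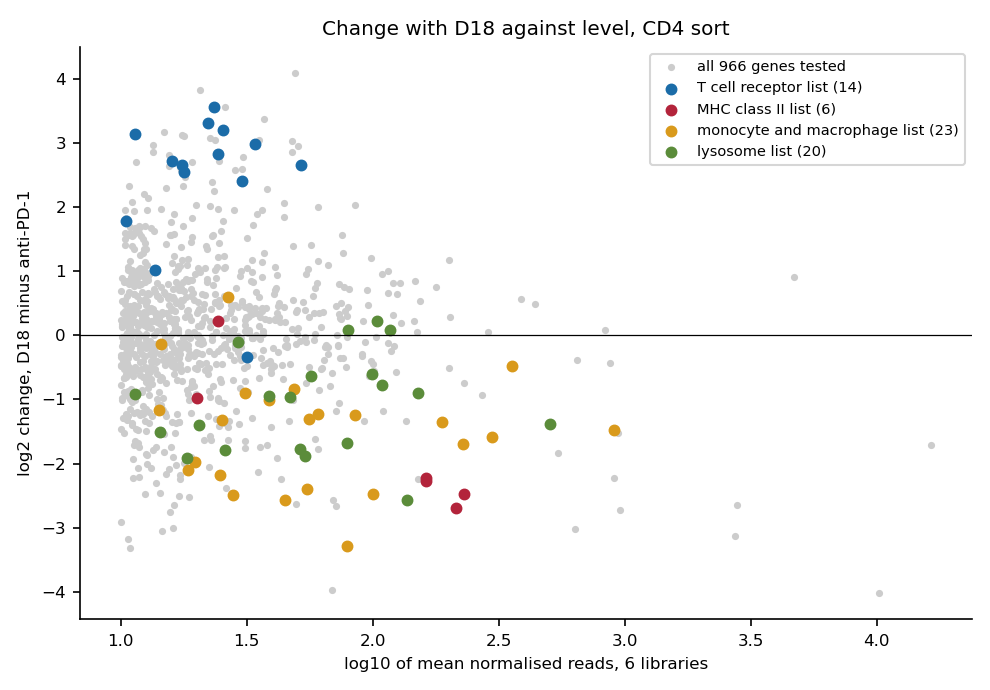
Log2 change with D18 (vertical axis) against the log10 of mean normalised reads over 6 libraries (horizontal axis) for the 966 genes tested, with 4 lists coloured. 13 of 14 receptor genes lie above 0, and 22 of 23 macrophage genes and 5 of 6 class II genes lie below it.

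The test outcome turned on single libraries. Without anti-PD-1 replicate 3, limma called 19 genes, 17 that rose (1.76% of genes tested) and 2 that fell (0.207%), now setting anti-PD-1 replicates 1 and 2, with 0 and 1 reads of Cd3e, 7 and 1 of Cd4 and 304 and 677 of H2-Aa, against D18 with 23, 10 and 41, 16, 10 and 2, and 10, 16 and 241. The genes that fell were Lgmn and the secreted ribonuclease gene Rnase4, and 6 of those that rose belong to the receptor list. Without both libraries numbered 3, 11 rose (1.14%) and 23 fell (2.38%), among them Icos (5.59), Tnfrsf9 (5.43) and Ms4a4b (5.43) on the one side and Tgfbi (−5.55), H2-Aa (−4.24) and Fcer1g (−4.08), an Fc receptor signalling chain, on the other. That fit sets 2 libraries nearly without T cell reads against D18 replicates 1 and 2, which are low in class II. Without anti-PD-1 replicates 1 and 2, 0 genes passed and 4 had an unadjusted p under 0.05, with Cd3e at 45 against 23, 10 and 41, Cd4 at 20 against 16, 10 and 2 and H2-Aa at 160 against 10, 16 and 241, and the single anti-PD-1 library taken to vary like the others.

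**Figure D5:**
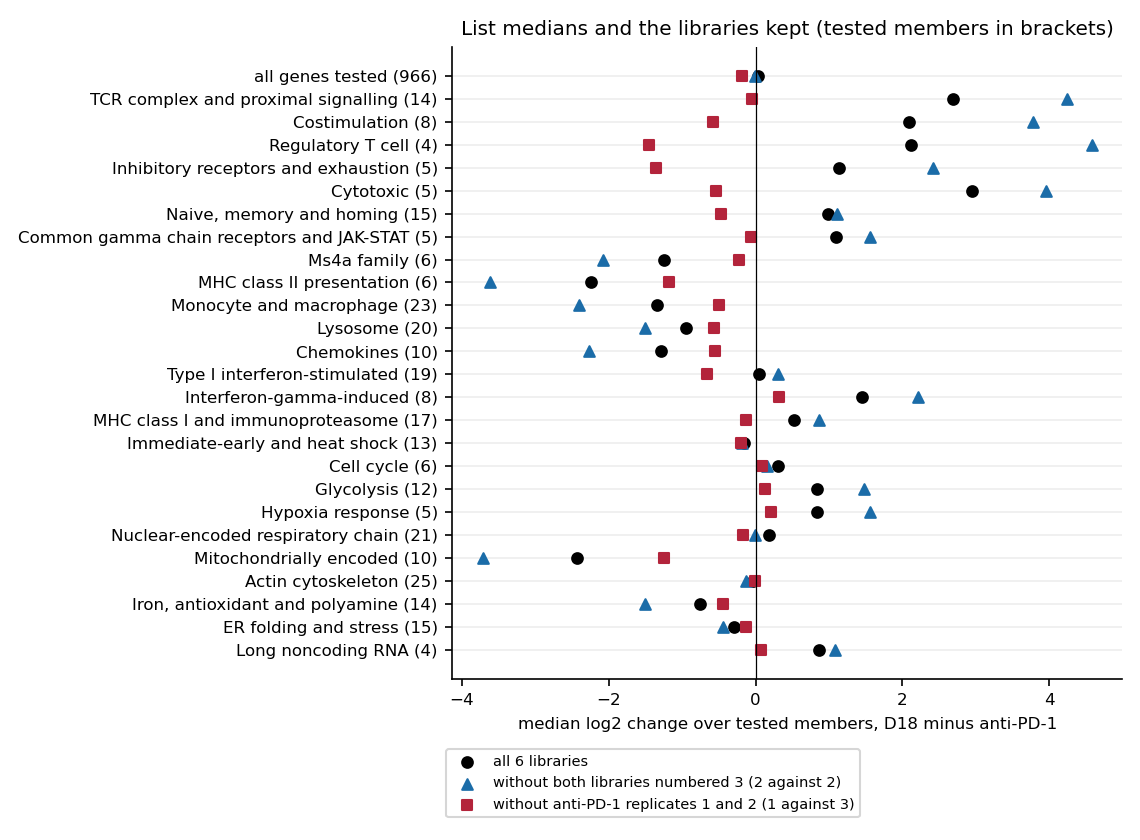
Median log2 change over the tested members of each list (horizontal axis) with all 6 libraries (black circles), without both libraries numbered 3 (blue triangles) and without anti-PD-1 replicates 1 and 2 (red squares). The receptor list moves from 2.68 to 4.25 and to −0.05, and the class II list from −2.25 to −3.62 and to −1.18.

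Whether the change with D18 in the CD4 sort differed from that in the other sorts was tested as an interaction. Against the CD8 sort, limma called 0 of 916 genes (percent called 0, 18 with an unadjusted p under 0.05, smallest adjusted p 0.992). The smallest unadjusted p belonged to Tpm4, a tropomyosin, with changes of 1.12 in the CD4 sort and −0.84 in the CD8 sort (difference 1.96 ± 0.64, SE, n = 3 per group and sort). Sh2d2a, a T cell adaptor, had values of 2.85 against −0.54, and Zbp1 of −1.21 against 0.36. Gpr65 (difference 2.10 ± 0.75) and Metap2 (1.91 ± 0.70) completed the first 5. Against the dendritic cell sort, 0 of 744 genes passed (9 with an unadjusted p under 0.05, smallest adjusted p 0.850), led by Marcks, an actin-binding protein of the membrane, at −2.65 in the CD4 sort and 0.20 in the dendritic cell sort. Rpn2, Ssr1, Hmgb2 and Stk17b followed. In the CD8 sort Cd3e had 47, 116 and 30 reads under anti-PD-1 alone against 37, 209 and 19 with D18, Cd4 had 0, 0 and 4 against 0, 0 and 1, and H2-Aa had 7, 63 and 342 against 8, 349 and 120. In the dendritic cell sort Cd3e had 0, 0 and 34 against 0, 0 and 69, Cd4 had 0, 0 and 5 against 0, 0 and 5, and H2-Aa had 151, 689 and 269 against 391, 11 and 289. D18 replicate 2 of the dendritic cell sort held 11170 reads in all, the fewest of the 18 libraries. Without the libraries numbered 3 of each sort, 14 genes passed against the CD8 sort, all with a higher change in the CD4 sort. They include Lck (5.02 against −0.73), Cd3d (4.89 against 0.38) and Tnfrsf18 (4.38 against −1.51). The CD4 side of that contrast again holds anti-PD-1 replicates 1 and 2 (Cd3e 0 and 1, Cd4 7 and 1, H2-Aa 304 and 677) and D18 replicates 1 and 2 (23 and 10, 16 and 10, 10 and 16).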

How the data were processed

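RNA of CD4+ T helper cells sorted from MC38 tumours was sequenced in 6 Smart-Seq2 libraries, whose titles give the cell type, treatment and number of each. Per the submitters' processing notes, the authors used STAR 2.4.0, HTSeq 0.6.1, DESeq2 and mm10. The deposited tables hold log2 values made by the authors, and behave as the variance-stabilising transform of DESeq2 would make them, with genes without reads at the table minimum (1.34). Undoing it gave whole reads for 100% of the values above 0, within a tolerance of 0.001. Dividing by median-ratio size factors gave normalised reads. 0 columns lacked a sample, and 98.9% of gene IDs matched a symbol.

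limma 3.58.1 in R 4.3.3 (empirical Bayes, trend and robust) was fitted, with no replicate block, to log2(normalised reads + 1) of genes with a mean of at least 10, with Benjamini-Hochberg adjustment over all of them and a threshold of 0.05. It was tested on simulated data, drawn from the same gene means in every library apart from set changes. The real libraries differ in cell content, so that run does not show its power or error here. Interactions used effects within each sort's own table. Promoters came from RefSeq (GRCm38.p6). Python 3.11.15 made the tables. The rule for named genes took, as none passed, per direction the 10 lowest unadjusted p-values among genes whose higher group averaged 50 or more normalised reads, leaving out unnamed models, then 4 marker genes, up to 6 members per list and 5 genes per interaction. Other list members given by reads were chosen after their values were seen. The members and lists were chosen with earlier results of these data known. Deviations from the group means correlated weakly between libraries sharing a number (−0.14, 0.15 and −0.20, in order of number). Across genes, however, anti-PD-1 replicate 3 and D18 replicate 3 were each other's closest library within the CD4 sort (Spearman correlation 0.65). The labels state no pairing, and the numbers were not taken as pairs.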

Additional observations from a re-analysis of the deposited data

How the results depend on the processing

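With all 6 libraries limma called 0 of 966 genes (100 with an unadjusted p under 0.05). The count was also 0 on the deposited log2 values, with limma-voom, quantile normalisation, nuclear reads as library size, a filter at 100, a pseudocount of 0.1 or of 10, the replicate block, and without anti-PD-1 replicates 1 and 2. Unadjusted p-values under 0.05 then numbered 4 to 125. No filter gave 29 calls of 14441 genes. Leaving out 1 library at a time gave 0 to 19 calls, the 19 without anti-PD-1 replicate 3. Omitting both libraries numbered 3 gave 34. The interaction with the CD8 sort gave 14 calls without the libraries numbered 3 and 0 otherwise, and that with the dendritic cell sort 0 throughout. The cause of these differences was not tested. With the replicate block 0 genes passed (97 with an unadjusted p under 0.05), and not every library correlated best with its own number. Without anti-PD-1 replicates 1 and 2 the changes of Gimap4 (−0.18), Cd3e (−0.25) and Cd4 (−0.48) turned negative, and that of Cd4 was −1.29 with limma-voom. Of the 23 genes given with a change, 4 of their alternative values reversed. Of the list medians under alternatives, 413 moved by less than the spread between replicates and 26 by more. Depth limits the sort most in D18 replicate 2, where 3 reads are 96.3 CPM.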

Other observations

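Common gamma chain receptors and their JAK-STAT proteins were higher in 5 of 5 tested members of 13 (median 1.10, and −0.06 against anti-PD-1 replicate 3 alone), led by Il2rb, the shared beta chain of the interleukin-2 and interleukin-15 receptors, at 0, 0 and 56 reads against 36, 21 and 49 with D18. Cell cycle genes came to the test in 6 of 21 members, 4 of them higher (median 0.31), and Mki67, a marker of dividing cells, had 0, 1 and 6 reads against 1, 2 and 11. The long noncoding RNA Malat1 had 203, 34 and 256 reads against 350, 40 and 501. Haemoglobin transcript Hbb-bs, a sign of red cell RNA, had 23, 7 and 53 against 9, 0 and 9. The marker reads beside these values are those of the same libraries: Cd3e 0, 1 and 45 against 23, 10 and 41, Cd4 7, 1 and 20 against 16, 10 and 2, and H2-Aa 304, 677 and 160 against 10, 16 and 241. Immediate-early genes were split, 6 higher and 7 lower of 13 tested (median −0.16), with Fos at 377, 205 and 118 reads against 43, 77 and 57.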
